A study of Homo sapiens with 6 samples.

Results

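The genes of the Wnt pathway that encode its ligands, its receptors and the main proteins that limit it were examined in H1975 cells, a human non-small cell lung cancer line with mutant EGFR, before and after adaptation to Osi (osimertinib), an EGFR tyrosine kinase inhibitor. The members were chosen by gene symbol: WNT ligands, frizzled (FZD) receptors, SFRP1 to SFRP5, DKK1 to DKK4, LRP5, LRP6, AXIN2, LGR4, LGR5, RNF43 and ZNRF3. This found 44 of the 27216 rows of the deposited table, which were 19 ligands, 10 frizzleds, 2 LRP co-receptors, 4 SFRP genes, 4 DKK genes and 5 genes of the R-spondin and feedback arm. Of these, 17 had a mean of at least 1 over the 6 samples on the log2(FPKM + 1) scale, and 7 were listed at 0 in every sample. FPKM divides the fragments of a gene by its transcript length and by library size, so that levels of different genes can be set side by side, and this unit was inferred from the values since none is named. Closest to this limit were WNT10B (mean 0.88), FZD8 (0.70) and WNT10A (0.65) below it, and WNT9A (1.17), FZD3 (1.18) and FZD4 (1.24) above it.

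The parental group held 3 samples labeled wild type and Osi (1000 nM) for 0 h, and the adapted group held 3 samples labeled wild type and Osi (1000 nM) for 72 h. The table names its 0 h columns for DMSO. How long such cells spent in the vehicle is not stated, so that drug and time in culture cannot be told apart. By the labels, dead cells were washed off before RNA was taken, so the adapted samples hold the cells that had stayed attached. The labels also describe digestion of the RNA with RNase R, an enzyme that degrades linear RNA, which the methods of the study do not mention. Whether it was done, and how it bears on levels and shares compared between genes, was not tested. Both groups come from a single cell line, and although the study speaks of independent experiments in general, whether these replicates were separate cultures is not stated, so that p-values measure only the spread between these samples. In bulk RNA, fewer cells that express a gene and less RNA per cell cannot be told apart.

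Wnt ligands are secreted lipid-modified proteins that bind a frizzled receptor. When LRP5 or LRP6 is engaged as well, the destruction complex of AXIN, APC and GSK3 is blocked and beta-catenin accumulates and acts with TCF/LEF factors in the nucleus. Ligands such as WNT5A act mostly without beta-catenin, through receptors such as ROR1. DKK1 blocks the LRP co-receptors and SFRP proteins bind the ligands. RNF43 and ZNRF3 are membrane ubiquitin ligases that remove frizzleds from the surface, and R-spondins, through LGR4 and LGR5, remove these ligases in turn. In the lung, WNT7B is a ligand of the airway epithelium, and AXIN2 is widely used as a readout of beta-catenin activity.

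Promoter sequences of 4 members are shown. On the log2(FPKM + 1) scale, DKK1 gave the largest rise, RNF43 the largest rise among the feedback genes and FZD1 the largest fall of the members tested, and FZD8, which was not in that test, went from almost no signal to a low level. Each is the 250 bases before the RefSeq start on GRCh38.p14, read on the strand of the gene. Capitals mark matches on either strand to the letters TATAAA, the core of a TATA box, or GGAATG, a TEAD motif, and a stretch with no capitals holds neither.
DKK1: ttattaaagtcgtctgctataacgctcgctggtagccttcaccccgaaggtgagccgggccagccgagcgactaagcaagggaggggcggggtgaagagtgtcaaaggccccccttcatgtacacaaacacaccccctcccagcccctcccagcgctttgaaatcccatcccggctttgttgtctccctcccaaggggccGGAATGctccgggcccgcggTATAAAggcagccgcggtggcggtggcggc
FZD8: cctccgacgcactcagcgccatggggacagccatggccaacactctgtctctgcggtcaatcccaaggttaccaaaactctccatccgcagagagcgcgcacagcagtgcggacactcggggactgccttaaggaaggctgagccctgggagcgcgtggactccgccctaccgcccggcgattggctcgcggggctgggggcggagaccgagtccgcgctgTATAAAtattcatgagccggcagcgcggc
RNF43: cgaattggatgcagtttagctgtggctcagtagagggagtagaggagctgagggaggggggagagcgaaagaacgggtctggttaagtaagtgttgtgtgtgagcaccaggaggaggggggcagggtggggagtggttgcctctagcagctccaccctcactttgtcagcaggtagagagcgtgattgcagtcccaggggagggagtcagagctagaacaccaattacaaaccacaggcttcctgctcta
FZD1: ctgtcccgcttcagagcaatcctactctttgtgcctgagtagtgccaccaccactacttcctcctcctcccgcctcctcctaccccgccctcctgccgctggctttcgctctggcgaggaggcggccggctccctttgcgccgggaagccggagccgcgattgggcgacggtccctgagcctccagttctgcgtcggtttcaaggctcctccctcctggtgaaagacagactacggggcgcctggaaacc
The DKK1 sequence is chr10:52314031-52314280 on the plus strand, FZD8 is chr10:35642297-35642546 on the minus strand, RNF43 is chr17:58417535-58417784 on the minus strand and FZD1 is chr7:91264183-91264432 on the plus strand. RefSeq and GENCODE v29 place starts differently, and by the GENCODE positions given below the FZD1 and RNF43 windows run into the gene. DKK1 has GGAATG from position -50 and TATAAA from position -30, counted back from the start, and FZD8 has TATAAA from position -29. Over the 28 members with an entry in this promoter set, TATAAA was found in 2 and GGAATG in 1. AXIN2, WNT7B, DKK3, FZD2, FZD3, FZD6, FZD7, LRP6 and ZNRF3 were among the members without an entry. Among all 27305 promoters of that set, the shares were 11.1% and 11.9%. The TCF/LEF letters CTTTGAT, present in 2.28% of all promoters, and the AP-1 letters TGANTCA, present in 6.6%, were in none of the 28. Only these exact letters were searched, and the DKK1 sequence above holds CTTTGAA, which differs from CTTTGAT in the last letter. These matches describe letters in a short window and say nothing about binding. The matches in DKK1 do not overlap each other.

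Of the 19 ligands, WNT7B was by far the most abundant in both groups, and 3 ligands passed the filter. WNT7B (chromosome 22, 45920362 to 45977129, GENCODE v29 on GRCh38) had log2 values of 4.30, 4.22 and 4.20 in parental and 4.80, 4.48 and 4.56 in adapted cells. All adapted values lay above all parental values. It rose by 0.38 (standard error 0.09, limma, adjusted p = 0.00968), or from 17.9 ± 0.722 to 23.6 ± 2.89 FPKM (SD, n = 3 each). Of the summed ligand FPKM, WNT7B made up 72.9% ± 0.921 in parental cells and 69.4% ± 5.76 after adaptation (SD, n = 3 each).

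Among the ligands below WNT7B, WNT3 fell and WNT9A rose. WNT3, a beta-catenin ligand, had values of 2.12, 2.09 and 2.01 in parental and 1.79, 1.72 and 1.82 in adapted cells, with no overlap between the groups. It fell by 0.30 on the log2 scale (95% interval -0.48 to -0.12, limma, adjusted p = 0.0135). This call was lost without parental replicate 1 (adjusted p = 0.0616) and without parental replicate 2 (0.0561). WNT9A had 0.61, 0.57 and 0.57 in parental and 1.49, 2.06 and 1.71 in adapted cells, again apart. It rose by 1.17 on the log2 scale (limma, standard error 0.15, adjusted p = 4.72e-04). In FPKM, WNT3 went from 3.21 ± 0.174 to 2.43 ± 0.118 and WNT9A from 0.496 ± 0.0221 to 2.41 ± 0.688 (SD, n = 3 each). Thus WNT3 held 13.1% of the ligand sum and WNT9A 2.03% in parental cells, and each held 7.15% in adapted cells.

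Below the filter, several ligands went from near 0 to a low level in adapted cells. These were not in the main test, and their adjusted p-values come from limma without the filter, where 8759 of 23902 rows (36.6%) passed the threshold of 0.05, 19.9% higher and 16.7% lower. WNT5A, the ligand best known for signaling without beta-catenin, had values of 0.063, 0.071 and 0.10 in parental and 0.87, 1.08 and 0.64 in adapted cells (adjusted p = 0.00286). WNT6 had 0, 0.12 and 0.076 in parental and 0.81, 0.98 and 0.82 in adapted cells (adjusted p = 4.03e-04). Both were apart between the groups. WNT7A, a close relative of WNT7B, had 0.26, 0.26 and 0.24 against 0.49, 0.98 and 1.03 (adjusted p = 0.0228), and WNT10A rose from a mean of 0.47 to 0.82 (adjusted p = 0.00268). WNT10B, the 1 ligand with a parental mean of at least 1 that did not pass the filter, went the other way, with 1.07, 1.13 and 1.15 in parental and 0.58, 0.54 and 0.78 in adapted cells (adjusted p = 0.00617). WNT8B also fell, from a mean of 0.42 to 0.081 (adjusted p = 0.00535). WNT5B, a relative of WNT5A, was at 0, 0 and 0.030 in parental and at 0.12, 0.89 and 0.70 in adapted cells, and did not pass (adjusted p = 0.0656). WNT2B, WNT4 and WNT16 had group means between 0.19 and 0.58 and did not pass either. WNT1, WNT2, WNT3A and WNT8A had 1 value above 0 each, in a parental sample, and WNT9B and WNT11 were listed at 0 throughout. The summed FPKM of the 18 ligands other than WNT7B was 6.58, 6.73 and 6.60 in parental and 8.59, 11.7 and 10.9 in adapted samples.

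**Figure D1:**
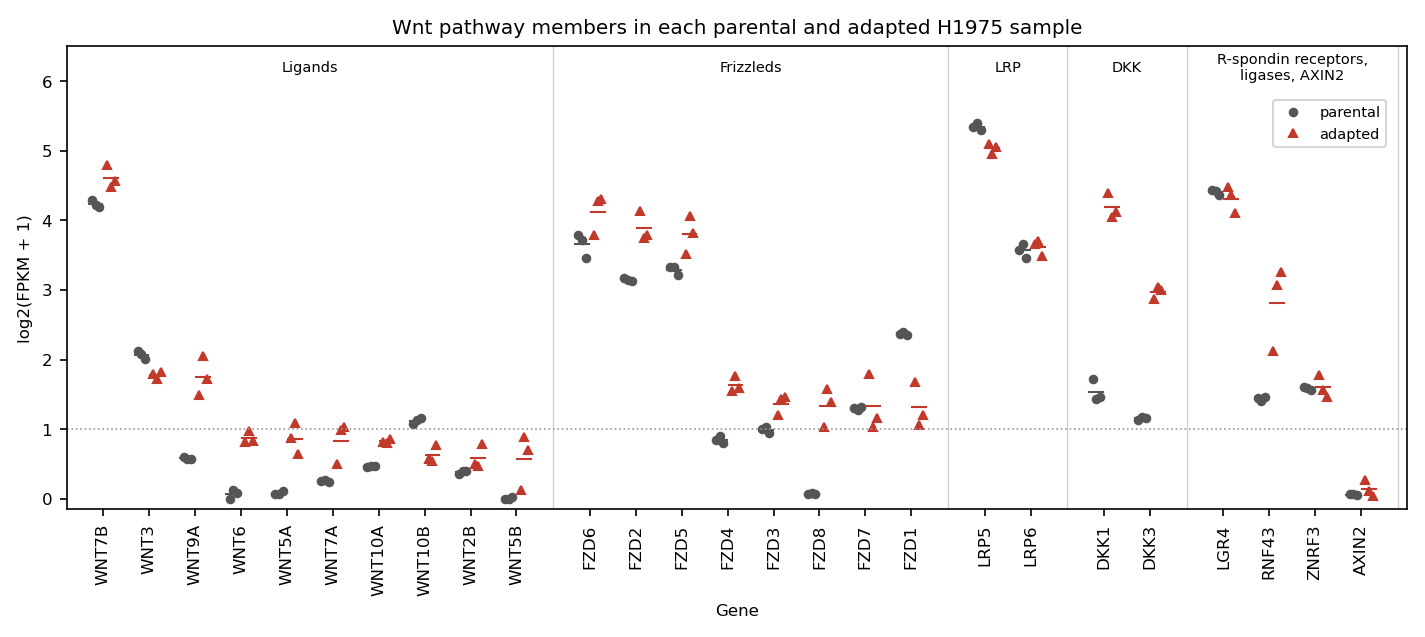
Values of log2(FPKM + 1) (y axis) of the members with a mean of at least 0.5 in either group, and of AXIN2, in each parental (gray circles) and adapted (red triangles) sample, with short lines at the group means and a dotted line at the filter of 1. DKK1, DKK3, RNF43, FZD8 and WNT9A are higher and FZD1 and WNT10B lower in all 3 adapted samples, while LGR4, LRP6, ZNRF3 and FZD7 overlap.

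The frizzleds are the seven-pass receptors of the ligands, and 7 of the 10 were tested. Of these, 5 rose, 1 fell and 1 did not pass the threshold, where 56.9% of all rows tested were called (30.7% higher and 26.2% lower). Among the 5, FZD3 and FZD4 had a parental mean under 1 and passed the filter through their adapted values. The count is thus a description and not a test. The summed FPKM of all 10 was 37.4, 36.8 and 33.5 in the parental and 49.2, 54.9 and 52.9 in the adapted samples, 1.46 times higher on average. FZD6, FZD5 and FZD2 were the most abundant in both groups and together carried most of this sum.

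Within the subfamily of FZD1, FZD2 and FZD7, the closest relatives among the frizzleds, the 3 genes moved differently. FZD2 (chromosome 17, 44557459 to 44559570) had values of 3.17, 3.14 and 3.13 in parental and 4.14, 3.75 and 3.79 in adapted cells. It rose by 0.74 (standard error 0.11, limma, adjusted p = 9.59e-04). FZD1 (chromosome 7, 91264364 to 91271326) had 2.37, 2.40 and 2.35 in parental and 1.67, 1.06 and 1.21 in adapted cells. It fell by 1.06 on the log2 scale (95% interval -1.42 to -0.70, limma, adjusted p = 9.49e-04). FZD7 had 1.30, 1.27 and 1.32 in parental and 1.79, 1.03 and 1.16 in adapted cells. Its groups overlapped, and its log2 fold change was 0.035 (95% interval -0.41 to 0.48, adjusted p = 0.889). Among adapted samples, replicate 1 was the highest for all 3 genes. As a share of the summed frizzled FPKM, FZD1 went from 11.7% ± 0.565 to 2.97% ± 1.3 and FZD2 from 22% ± 1.09 to 26.9% ± 6.02 (SD, n = 3 each). All 3 genes lie in a single exon in GENCODE v29. Their transcripts share 50-base stretches at no more than 1.55% of positions and share no 100-base stretch.

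FZD5 and FZD8 form another subfamily. FZD5 had values of 3.32, 3.33 and 3.22 in parental and 3.52, 4.06 and 3.82 in adapted cells, without overlap. It rose by 0.51 (standard error 0.13, limma, adjusted p = 0.0132). FZD8 (chromosome 10, 35638249 to 35642278) was at 0.064, 0.081 and 0.064 in parental and at 1.04, 1.57 and 1.39 in adapted cells. In FPKM this was 0.0497 ± 0.00725 against 1.55 ± 0.464 (SD, n = 3 each), and without the filter its adjusted p was 0.00107. FZD8 thereby reached a level close to that of FZD7, which had 1.58 ± 0.767 FPKM in adapted cells.

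FZD6 and FZD3, the pair tied most closely to planar cell polarity, also rose. FZD6 had 3.80, 3.71 and 3.46 in parental and 3.79, 4.28 and 4.31 in adapted cells. Adapted replicate 1 lay within the parental range. Its log2 fold change of 0.47 (95% interval 0.10 to 0.83) was close to the threshold (limma, adjusted p = 0.0359). The call was lost without parental replicate 2 (adjusted p = 0.073), parental replicate 3 (0.119), adapted replicate 2 (0.115) or adapted replicate 3 (0.11), and without the filter (0.0722). FZD3 had 1.001, 1.02 and 0.95 against 1.20, 1.43 and 1.46, a rise of 0.37 (standard error 0.10, limma, adjusted p = 0.0152) that missed the threshold without parental replicate 3 (adjusted p = 0.0578).

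FZD4, the receptor of Norrin as well as of Wnt ligands, had 0.85, 0.90 and 0.80 in parental and 1.55, 1.76 and 1.59 in adapted cells. It rose by 0.79 (standard error 0.09, limma, adjusted p = 3.81e-04). PRSS23, a serine protease gene on the opposite strand, shares 1399 exon bases with FZD4, which is 18.9% of the exon bases of FZD4. PRSS23 was far higher and also rose, from 42.7 to 235 FPKM, and since no strand setting is given its part in the FZD4 values was not tested. FZD9 went from a mean of 0.11 to 0.34 (adjusted p = 0.0384 without the filter), and FZD10 was listed at 0 throughout.

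**Figure D2:**
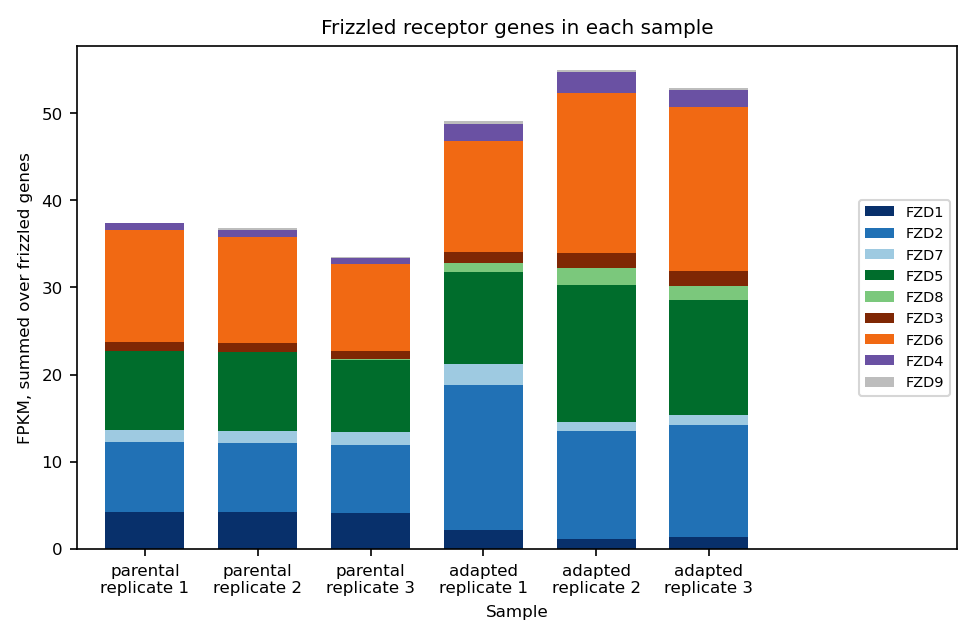
FPKM of the frizzled genes (y axis, stacked by gene) in each of the 6 samples (x axis), without FZD10, which is listed at 0. The adapted columns reach 49.2 to 54.9 FPKM and the parental ones 33.5 to 37.4, the FZD1 segment at the base is smaller in all adapted samples, and the FZD8 segment appears only there at a visible height.

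The co-receptors LRP5 and LRP6 pair with frizzleds in beta-catenin signaling. LRP5 had the highest level of all 44 members in both groups, with 39.7 ± 1.42 FPKM in parental cells and 31.8 ± 1.71 FPKM after adaptation (SD, n = 3 each). Its log2 values were 5.34, 5.40 and 5.30 in parental and 5.10, 4.95 and 5.06 in adapted cells. It fell by 0.31 on the log2 scale (95% interval -0.46 to -0.16, limma, adjusted p = 0.00483), with no overlap. For LRP6 the values were 3.57, 3.67 and 3.47 in parental and 3.66, 3.70 and 3.49 in adapted cells, and the groups overlapped. The interval of its log2 fold change was -0.15 to 0.25 (adjusted p = 0.653).

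The Dickkopf genes gave the largest changes of all members tested. DKK1 (chromosome 10, 52314296 to 52318042, plus strand), the secreted inhibitor of LRP5 and LRP6, had log2 values of 1.73, 1.44 and 1.46 in parental and 4.39, 4.05 and 4.12 in adapted cells. The lowest adapted value was more than 2 above the highest parental one. It rose by 2.65 (standard error 0.12, 95% interval 2.37 to 2.93, limma, adjusted p = 6.15e-06), or 9.01-fold in FPKM, from 1.92 ± 0.336 to 17.3 ± 2.36 (SD, n = 3 each). DKK3, a divergent family member with a less settled role in Wnt signaling, had 1.14, 1.17 and 1.15 in parental and 2.87, 3.04 and 2.99 in adapted cells. It rose by 1.81 (standard error 0.08, limma, adjusted p = 5.27e-06), or 5.56-fold in FPKM. DKK2 and DKK4 were listed at 0 in every sample. KREMEN1, which binds DKK1 together with LRP6, had a log2 fold change of 0.23 (95% interval -0.04 to 0.50), and KREMEN2 had values of 1.21, 1.14 and 1.39 in parental and 0.68, 0.67 and 0.34 in adapted cells, under the filter. The other family of secreted inhibitors was not detected at a comparable level. SFRP1 and SFRP2 were listed at 0, and no value of SFRP4 or SFRP5 exceeded 0.18.

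In the R-spondin and feedback arm the members differed from one another. RNF43 (chromosome 17, 58352500 to 58417595) had 1.45, 1.41 and 1.46 in parental and 2.12, 3.07 and 3.26 in adapted cells. All adapted values were higher, and replicate 1 lay well below the other two. The log2 fold change was 1.38 (standard error 0.27, 95% interval 0.74 to 2.01, limma, adjusted p = 0.00391). It was 1.72 without adapted replicate 1, 1.25 without adapted replicate 2 and 1.15 without adapted replicate 3. Its homolog ZNRF3 had 1.60, 1.59 and 1.56 against 1.78, 1.56 and 1.47. These groups overlapped, and the interval of the log2 fold change was -0.22 to 0.26 (adjusted p = 0.889). RNF43 shares 143 exon bases with SUPT4H1, which lies on the same strand and rose by 0.57 (adjusted p = 2.44e-04), and 57.6% of its exon bases with AC004687.2, which had at most 0.60 in any sample. AC004687.2 was also higher in all adapted samples, with a mean of 0.055 FPKM in parental and 0.33 in adapted cells. How the counting split reads from shared bases is not stated, and the part of these genes in the RNF43 values was not tested.

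LGR4, the R-spondin receptor found in most epithelia, had the highest level after LRP5 in parental cells, with values of 4.44, 4.42 and 4.36, and had 4.47, 4.36 and 4.10 in adapted cells. Its log2 fold change was -0.094 (95% interval -0.33 to 0.14, adjusted p = 0.445). LGR5, a stem cell marker of the gut, had no value above 0.095. AXIN2 was at 0.066, 0.060 and 0.053 in parental and at 0.27, 0.11 and 0.038 in adapted cells. Adapted replicate 3 was below all parental samples and replicates 1 and 2 above them, and without the filter AXIN2 did not pass (adjusted p = 0.373). AXIN2 shares 1316 exon bases (25.2% of its own) with AC004805.1 on the same strand, which was listed at 0 in every sample. How this overlap bears on the AXIN2 values was not tested.

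**Figure D3:**
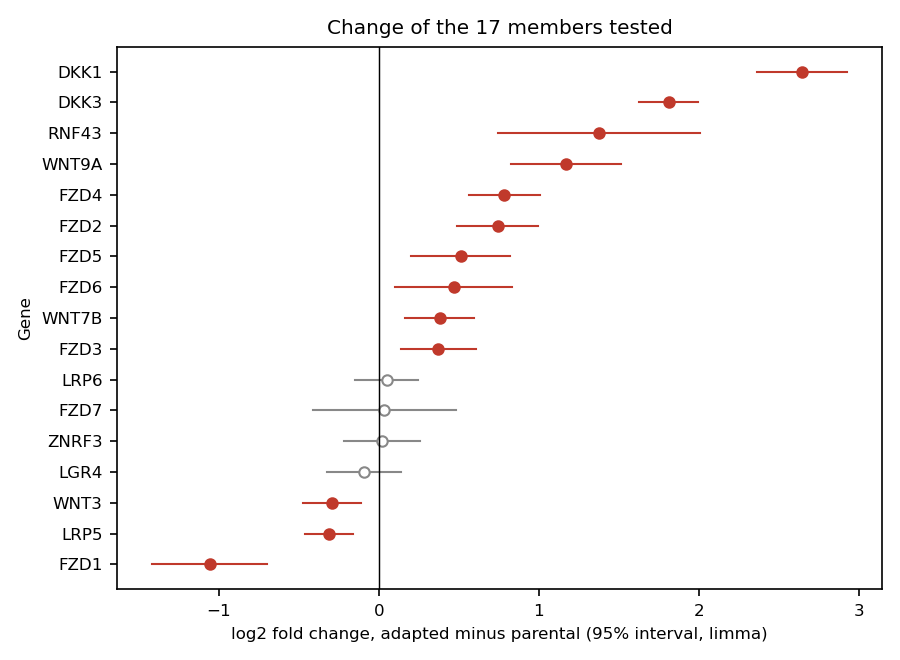
Log2 fold change, adapted minus parental (x axis), of the 17 members tested, with 95% intervals from limma. Filled red points are past an adjusted p of 0.05 and open gray points are not. DKK1 and DKK3 lie farthest to the right at 2.65 and 1.81, and FZD1 farthest to the left at -1.06.

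Over the 17 members tested, 10 rose and 3 fell, which is 76.5%, while 56.9% of all 12656 rows tested were past the same threshold (30.7% higher and 26.2% lower). The groups did not overlap in 12 of the 17 (70.6%), against 66.3% of all rows (35.7% with adapted higher and 30.6% with adapted lower). The median log2 fold change of the 17 was 0.38 and that of all rows tested 0.028. Of the 17, 3 (WNT9A, FZD4 and FZD3) had a parental mean under 1 and passed the filter through their adapted values, so these shares are a description and not a test. In GENCODE v29, the spans of 8 of the 17, introns included, overlap an antisense gene, among them DKK1 with PRKG1-AS1. FZD4 and PRSS23 share 1399 exon bases, while LRP6 and BCL2L14 share 0, and for DKK1 no shared exon length is given here. With no strand setting given, reads from exon bases that such a pair shares cannot be told apart. Without the filter, 15 of the 37 members with any value rose and 5 fell (54.1%, against 36.6% of all rows). A log2 fold change of at least 1 in size together with the threshold was reached by 5 of the 17 members tested, DKK1, DKK3, RNF43, WNT9A and FZD1. Of all 12656 rows tested, 1328 (10.5%) reached both.

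The other genes of the pathway were taken from 7 lists of 103 genes in all. Of the 62 that were tested, 27 rose and 16 fell, which is 69.4% called, with a median log2 fold change of 0.13, against 56.9% of all rows tested (30.7% higher and 26.2% lower) and a median of 0.028. Of the 27, 4 (NOTUM, RECK, CELSR2 and SOX9) had a parental mean under 1 and passed the filter through their adapted values. Under the filter were 2 genes with a parental mean of at least 1 (KREMEN2 and NKD2) and 2 with an adapted mean of at least 1 (GPC4 and TNFRSF19). The lists differed in their counts. Among genes of ligand maturation, secretion and inactivation, 3 of 4 tested rose. NOTUM, a secreted enzyme that removes the lipid of Wnt ligands and so inactivates them, had 0, 0.096 and 0.044 in parental and 2.45, 3.54 and 3.67 in adapted cells. It rose by 3.18 on the log2 scale (limma, standard error 0.30, adjusted p = 1.26e-04), more than any member tested. Adapted replicate 1 was the lowest adapted sample. PORCN, which attaches this lipid, rose by 0.60 (adjusted p = 0.00217), MESD, the chaperone of LRP5 and LRP6, rose by 0.27 (adjusted p = 0.0146), and WLS, the carrier of ligands to the surface, overlapped between groups. The MESD call was lost without parental replicate 1 (adjusted p = 0.0657) or 2 (0.0502). Of the list of other secreted agonists and antagonists, 2 of 15 were tested and IGFBP4 rose by 0.65 (adjusted p = 0.019), a call lost without parental replicate 2 (0.0537) or 3 (0.0638) and without adapted replicate 2 (0.0567). The R-spondin genes RSPO1 to RSPO4 had no value above 0.10.

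Among the other receptors, 4 of 6 tested rose and none fell, RECK being 1 of the 4, where 30.7% of all rows tested were higher. ROR1, a receptor of WNT5A, had 2.33, 2.20 and 2.29 in parental and 4.36, 4.20 and 4.12 in adapted cells, a rise of 1.96 (standard error 0.08, limma, adjusted p = 4.78e-06). PTK7 rose by 0.83 (adjusted p = 3.75e-05) and RECK, which works with FZD4 and WNT7A or WNT7B, by 0.66 (adjusted p = 6.74e-04). ROR2 was listed at 0 throughout. In the planar cell polarity list, 5 of 11 rose, CELSR2 having passed the filter through its adapted values, and 3 fell. The shares of all rows tested were 30.7% higher and 26.2% lower. PRICKLE1 rose by 2.01 (adjusted p = 1.66e-05), CELSR1 by 0.93 and CELSR2 by 0.74, while INVS fell by 0.59, PRICKLE3 fell by 0.47 and PRICKLE2 fell by 0.37 on the log2 scale. With single samples left out, the PRICKLE2 call was lost in 5 of 6 fits (adjusted p = 0.056 to 0.0771 in those), kept only without adapted replicate 1, and the PRICKLE3 call without parental replicate 1 (0.0615) or 2 (0.0522).

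The list of Dishevelled and destruction complex genes, in which CTNNB1 was counted, moved both ways, with 7 of 19 higher, 7 lower and a median of -0.022. Of all rows tested, 30.7% were higher and 26.2% lower. CTNNB1, which encodes beta-catenin, had 6.68, 6.77 and 6.58 in parental and 5.995, 6.15 and 5.98 in adapted cells. It fell by 0.64 on the log2 scale (95% interval -0.82 to -0.46, limma, adjusted p = 4.06e-04). AXIN1 fell by 0.36 and DVL1 fell by 0.34, while the kinase gene GSK3B rose by 0.56, CSNK1D by 0.36 and AMER1 by 0.36. The AMER1 call was lost without parental replicate 1 (adjusted p = 0.0554) or 3 (0.0536). In the TCF/LEF complex, 4 of 11 rose and 3 fell, to be set against the same shares of all rows tested. TCF7L2 had the highest level of the TCF/LEF factors, with 3.51, 3.49 and 3.40 in parental and 2.83, 2.61 and 2.66 in adapted cells, and it fell by 0.76 (95% interval -0.95 to -0.57, adjusted p = 2.29e-04). LEF1 was listed at 0, and TCF7 had a mean of 0.42 in parental and 0.31 in adapted cells. The corepressor TLE2 had 1.19, 1.12 and 0.92 in parental and 2.49, 3.52 and 3.66 in adapted cells and rose by 2.14 (adjusted p = 6.69e-04). Its relative TLE3 fell by 0.69 and AES (TLE5) rose by 0.60, while PYGO2 rose by 0.32 and CTNNBIP1 fell by 0.30. The CTNNBIP1 call was lost without parental replicate 1 (adjusted p = 0.0774) or 2 (0.0506).

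Of the genes widely used as beta-catenin/TCF targets that were tested, 3 of 9 were higher and 3 lower, with a median of -0.086. Among all rows tested, 30.7% were higher and 26.2% lower, and SOX9 had passed the filter through its adapted values. BMP4 rose by 1.71 (adjusted p = 1.8e-04), SOX9 by 0.93 and EPHB2 by 0.31. VEGFA fell by 1.74 on the log2 scale (adjusted p = 2.76e-06), MMP7 fell by 0.97 and CD44 fell by 0.91, and each of these genes also responds to other pathways. For MMP7 and CD44, adapted replicate 1 was the closest to the parental samples, and each call was lost in 4 of the 6 fits that left out one sample (adjusted p = 0.0502 to 0.0758 in those). MYC and CCND1 did not pass the threshold. Among targets under the filter, TNFRSF19 had 0.44, 0.58 and 0.34 in parental and 1.55, 1.25 and 1.30 in adapted cells, without overlap. SP5, ASCL2 and FGF18 had no value above 0.31, and SP5 and FGF18 were higher in all adapted samples.

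**Figure D4:**
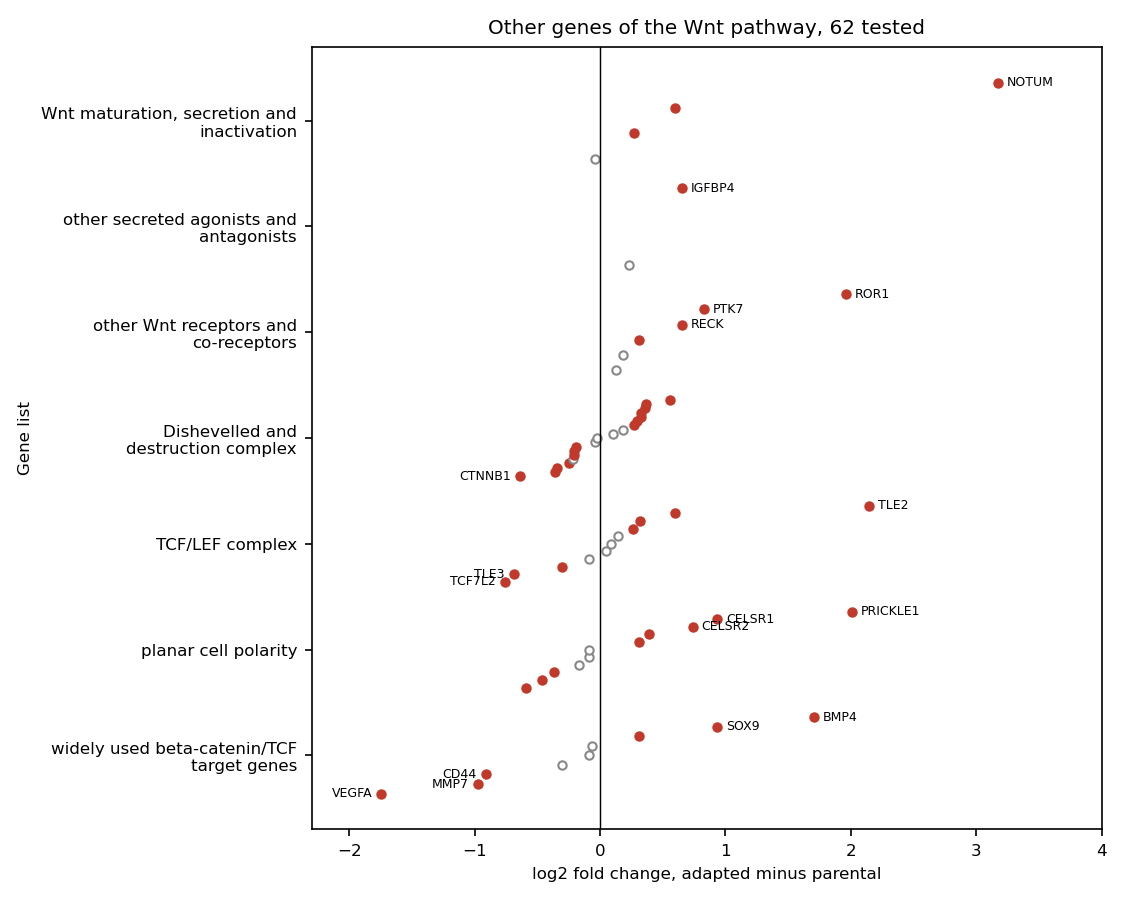
Log2 fold change, adapted minus parental (x axis), of the 62 tested genes of the 7 other Wnt pathway lists (y axis; points are spread vertically within a list by rank). Filled red points are past an adjusted p of 0.05 in limma, and called genes beyond 0.6 in size are named; NOTUM, TLE2, PRICKLE1, ROR1 and BMP4 lie farthest to the right and VEGFA farthest to the left.

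Across the whole table, parental samples correlated with one another at 0.997 over rows, while adapted replicate 1 correlated at 0.991 with each of the other adapted replicates, which correlated at 0.996 with each other. In 9 of the 13 called members, adapted replicate 1 was the adapted sample nearest to the parental mean. The same count was not made over all called rows. All 6 epithelial markers were expressed, with a summed FPKM of 3710 to 3742 in parental and 3491 to 3788 in adapted samples. The genes behind this sum moved both ways. KRT7 was called higher, from a mean of 671 to 1422 FPKM. KRT8 (904 to 748), KRT18 (853 to 579) and KRT19 (936 to 556) were called lower, and EPCAM and CDH1 overlapped between the groups. Of 6 fibroblast markers 1 (COL1A1) had a mean of at least 1, and the list summed to 3.04 to 3.16 FPKM in parental and 7.66 to 9.21 in adapted samples. None of 5 endothelial markers reached a mean of 1 over the 6 samples, with sums of 1.17 to 1.87 and 1.46 to 3.48 FPKM. Within this list CDH5 went from a mean of 0.21 to 1.71 and PECAM1 from 1.22 to 0.089, both without overlap, while VWF, TEK and CLDN5 had no value above 0.34. Of 6 leukocyte markers CD68, also a lysosomal protein of other cells, had a mean of at least 1, with sums of 74 to 76.4 and 14.7 to 29.7 FPKM. CD3E was at 0 in all samples, and PTPRC, which marks leukocytes in general, was at 0 in parental cells and had no adapted value above 0.077. The part of the fibroblast and endothelial markers in the results was not tested.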

How the data were processed

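RNA-sequencing of H1975 cells was analyzed in 3 parental (0 h) and 3 adapted (72 h of Osi) samples. The authors deposited 1 table of log2 values, whose scale was inferred from the numbers as log2(FPKM + 1). Per the labels, the submitters' processing notes name Bowtie2 2.1.0, STAR, edgeR and hg38, with no roles. The counter, annotation and strand setting are not given in the sources used here. The authors used a count-based test (DESeq2). Since log2 values are not counts, limma 3.58.1 in R 4.3.3 was used. Columns were matched to samples by group and replicate number, and 0 other columns were left. Once converted to FPKM, 147 rows did not come out at 6 decimals as the rest did, and no member or tested pathway gene was among these rows.

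Rows with a mean of at least 1 (12656) were fitted by limma's lmFit and eBayes (trend on the mean level), two-sided and without pairing. P-values were adjusted over these rows by Benjamini-Hochberg, with 0.05 as the threshold. Adding 1 before the log makes the change of low genes look smaller. Depth is unknown, so errors come from replicates alone. An exact permutation test of 3 against 3 samples reaches p = 0.1 at best. The fit was also run on simulated data with independent noise and few changed genes. These data differ from that setting, so the run does not bear on single calls. Every member with a mean of at least 1, over all samples or in a group, was named with its values, and the others by name or range. From each pathway list, up to 3 genes that rose most and 3 that fell most past the threshold without overlap were named, and CTNNB1, TCF7L2, LEF1 and TCF7 in any case. Genes outside this rule were picked with their values known. The members, lists and tests were chosen with earlier results of these data known. Gene positions are from GENCODE v29 (GRCh38) and promoters from RefSeq (GRCh38.p14). Alternatives concerned the pseudocount, filter, scaling, variance model, replicate number, rows and single samples.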

Additional observations from a re-analysis of the deposited data

How the results depend on the processing

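Of the members tested, 10 were called higher and 3 lower. The stricter filter (mean of at least 3) gave 4 and 1, with fewer genes tested, and a limit of 1 on the log2 fold change gave 4 and 1. Without the filter 5 were called lower. Over all rows, 7202 were called, 4532 with the stricter filter and 1328 with the limit on fold change. When samples were left out singly (6 fits), 8 to 10 members were higher and 2 to 3 lower, 5763 to 8370 rows were called, and 29 to 50 other pathway genes were called, against 43 with all samples. Samples with the same replicate number did not deviate together (r = -0.0509, -0.0309 and -0.0203 across rows), so the numbers were not taken as pairs. With the replicate number as a block, 9 members were higher (FZD6 lost its call), 3 lower, and 40 pathway genes and 6761 rows were called. Among members, the sign turned only in genes that were not called, namely LGR4, LRP6, ZNRF3 and FZD7. Their log2 fold changes with single samples left out ranged from -0.17 (without adapted replicate 1) to 0.012 (without adapted replicate 3) for LGR4, from -0.0035 (without parental replicate 3) to 0.11 for LRP6, from -0.073 (without adapted replicate 1) to 0.087 for ZNRF3 and from -0.20 (without adapted replicate 1) to 0.18 for FZD7. Quantile normalization gave -0.043 for ZNRF3 and -0.016 for FZD7, and median centring -0.0015 for ZNRF3. The scalings tried left the median of all rows between 0.0046 and 0.037. The cause of these shifts was not tested. Without counts, the counting error of low members such as AXIN2 is unknown.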
